A study of Mus musculus with 12 samples.

Results

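The 10 genes described here are 5 bone morphogenetic protein (BMP) ligand genes (Bmp2, Bmp4, Bmp5, Bmp6 and Bmp7) and 5 transcriptional response genes of the pathway (Msx1, Msx2, Id1, Id3 and Id4). They were chosen by name from the 22667 genes of the tables, and all 10 were found by their Ensembl gene ID and passed the filter on low counts, also when that filter was applied to the cortex or the hippocampus libraries alone. Messenger RNA of the embryonic mouse brain, dissected at stage E18.5, was profiled in cortex and in hippocampus. The control groups were labelled wild type. The knockout (KO) groups were labelled as KO of Srrm4, also called nSR100, a splicing regulator of neurons. The KO allele began as a conditional allele (nSR100lox) in EUCOMM stem cells from 2 clones, aggregated with outbred ICR morulae. The mice were then kept on a C57Bl/6N background and crossed to B6.C-Tg(CMV-cre)1Cgn/J animals, whose cytomegalovirus promoter drives Cre broadly and not in neurons alone, and exons 7 and 8 were excised. Each genotype of each tissue had 2 libraries, 8 in all. The labels do not say whether they came from separate embryos, so p-values measure the scatter of these libraries alone, and that scatter may be technical.

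BMPs are secreted dimers of the TGF-beta superfamily. They bind paired type I and type II serine/threonine kinase receptors, which phosphorylate Smad1, Smad5 and Smad9; these enter the nucleus with Smad4 and switch on target genes. Msx1 and Msx2 are homeobox repressors, and the Id proteins are helix-loop-helix proteins without a DNA-binding domain that hold back proneural bHLH factors. In the forebrain, BMPs are made along the dorsal midline by the roof plate, the cortical hem and the choroid plexus next to the hippocampal primordium, and also by the meninges, and they are known for patterning the medial pallium. In whole tissue, fewer cells of a type and less RNA per cell cannot be told apart.

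Total counts ran from 58210499 to 140052443 per library, and replicate 1, which pools 2 sequencing runs, was the deeper library of every group. Srrm4 lay at 24.2 to 27.9 RPKM (reads scaled by gene length and library total) in the 4 control libraries and at 5.68 to 8.12 in the 4 KO libraries, so every library matched its label. These values cover the whole gene and do not show the excised exons by themselves. Of 10 genes of the hippocampal field and dentate list, 8 were higher in control hippocampus, among them Neurod1, Lhx9 and Lef1. Of the other 2, named after their values were seen, Mef2c was lower (−3.03 on the log2 scale) and Wfs1 did not pass (−0.44). The cortex libraries also held striatal transcripts, with the 9 genes of the striatal list summing to between 120 and 134 RPKM there against 23.1 to 28.4 in hippocampus. Among the hippocampus libraries, control replicate 2 stood apart with Ttr, the choroid plexus transthyretin gene, at 152 RPKM against 13.4, 24.1 and 26.8 in the others. KO replicate 1 stood apart with 4.40% of counts from mitochondrial genes against 3.14% to 3.44% in the other 7 libraries.

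The sequences just upstream of the response genes are shown first, because Msx1, Msx2 and Id3 had the 3 largest differences between the tissues and Id4 had none that passed the test. RefSeq promoters (build GRCm38.p6) were at hand for 7 of the 10 genes (Bmp4, Bmp5, Bmp6, Msx1, Msx2, Id3 and Id4); Bmp2, Bmp7 and Id1 had no entry. Each line holds the 250 bases before the annotated start, 5′ to 3′ on the gene's strand. Capitals mark matches to 2 short motifs on either strand, GTCT (or its complement AGAC), a core bound by Smad proteins, and GGCGCC, a GC-rich motif of Smad1 and Smad5 sites, which is its own complement. No 2 matches overlapped in these lines. Msx1 lies on the minus strand at chr5:37824586-37824835, Msx2 on the minus strand at chr13:53472781-53473030, Id3 on the plus strand at chr4:136143572-136143821 and Id4 on the plus strand at chr13:48260866-48261115.
Msx1: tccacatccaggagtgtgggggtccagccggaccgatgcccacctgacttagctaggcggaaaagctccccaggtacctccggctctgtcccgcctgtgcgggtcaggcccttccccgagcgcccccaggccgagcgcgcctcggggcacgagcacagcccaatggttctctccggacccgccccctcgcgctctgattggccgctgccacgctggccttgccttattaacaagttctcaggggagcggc
Msx2: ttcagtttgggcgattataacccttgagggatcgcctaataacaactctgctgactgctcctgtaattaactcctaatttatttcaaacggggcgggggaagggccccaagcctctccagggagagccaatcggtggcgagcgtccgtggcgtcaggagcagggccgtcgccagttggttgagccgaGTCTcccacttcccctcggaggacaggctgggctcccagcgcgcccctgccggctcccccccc
Id3: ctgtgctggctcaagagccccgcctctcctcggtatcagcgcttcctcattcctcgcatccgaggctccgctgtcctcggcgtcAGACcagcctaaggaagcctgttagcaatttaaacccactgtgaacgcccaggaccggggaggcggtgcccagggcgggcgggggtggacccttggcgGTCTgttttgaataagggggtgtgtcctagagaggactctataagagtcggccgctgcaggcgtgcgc
Id4: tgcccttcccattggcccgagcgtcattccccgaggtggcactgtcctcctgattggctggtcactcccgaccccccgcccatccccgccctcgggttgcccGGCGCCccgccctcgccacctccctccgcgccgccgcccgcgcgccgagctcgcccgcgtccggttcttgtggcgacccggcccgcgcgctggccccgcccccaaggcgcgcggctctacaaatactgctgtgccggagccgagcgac
The Msx1 window held neither motif, the Msx2 window held 1 GTCT core, the Id3 window held 2, and the Id4 window held 1 GGCGCC. The latter motif was found in 1 of the 7 available windows and in 9.6% of all 32851 promoters of that length, and the GTCT core in 5 of 7 and in 82.9%. The windows of these 4 genes were GC-rich, at 68.0% for Msx1, 61.6% for Msx2, 62.8% for Id3 and 75.6% for Id4, against a median of 52.4% over all promoters. Those of Bmp4 and Bmp6 were at 63.2% and 68.8%, and that of Bmp5, at 42.8%, lay below the median. The share of all promoters that are as GC-rich was not counted. These matches describe the printed letters and are not evidence of binding.

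The comparison of hippocampus with cortex in control embryos asks where these genes were expressed. Of the 10 genes, 8 were higher in hippocampus, 1 (Bmp2) was lower and 1 (Id4) did not pass at an adjusted p under 0.05 in edgeR's quasi-likelihood test. Over all 16111 genes tested, 19% were called higher and 14.9% lower, 33.9% in all. The median log2 fold change was 1.18 over the 10 genes and 0.01 over all genes tested. On RPKM, the 4 hippocampus and 4 cortex libraries did not overlap for 9 of the 10 genes, 8 higher and 1 lower; over all genes with RPKM values, 50.7% were separated, 32.6% higher and 18% lower. All values below are RPKM of single libraries, replicate 1 before replicate 2.

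**Figure D1:**
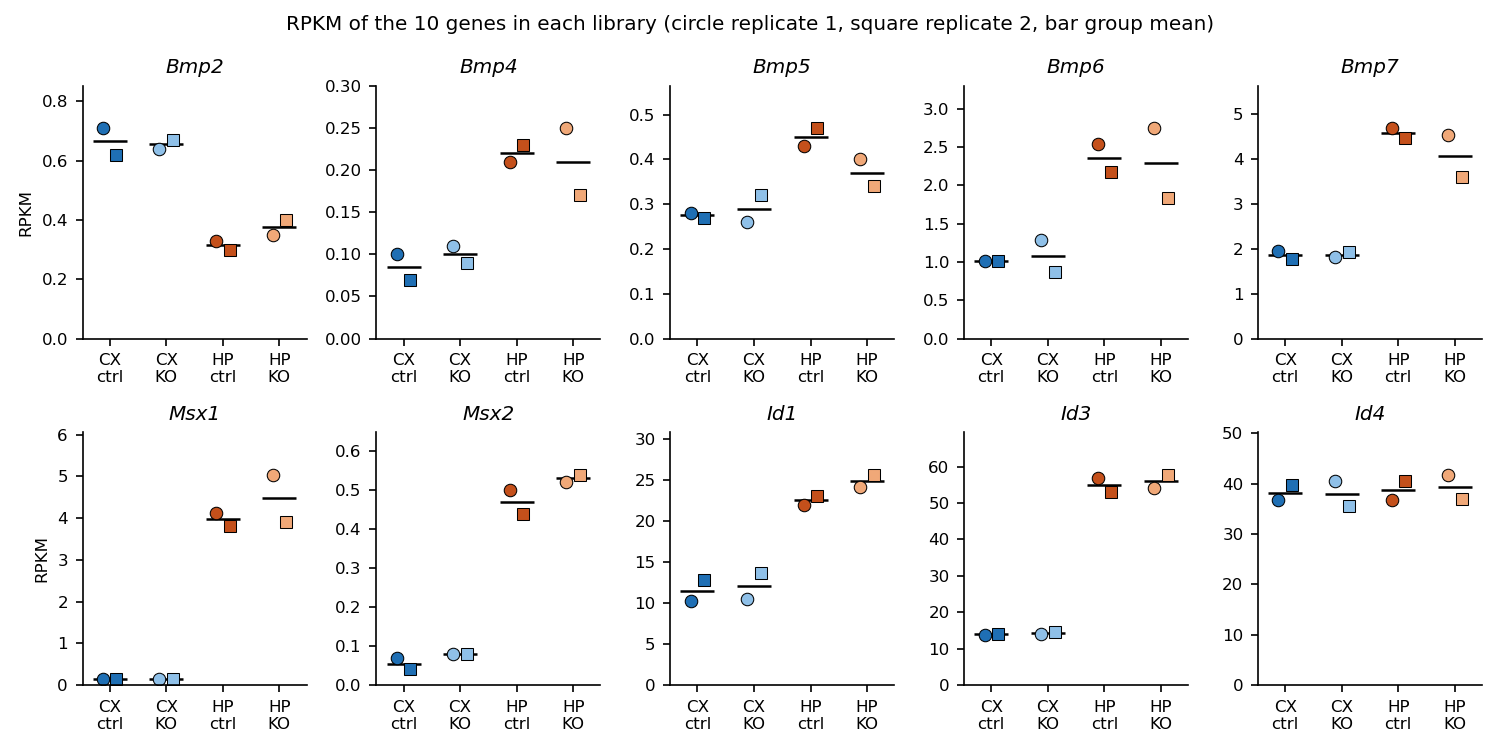
RPKM of the 10 genes (vertical axes, linear from 0, 1 panel per gene) in the 4 groups (CX cortex, HP hippocampus, ctrl control); circles are replicate 1, squares replicate 2 and bars the mean of 2 libraries. In every panel except those of Bmp2 and Id4, all 4 hippocampus libraries lie above all 4 cortex libraries; for Bmp2 they lie below, and for Id4 all 8 libraries lie between 35.5 and 41.8 RPKM.

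Msx1 had the largest difference between tissues of the 10 genes. Its RPKM was 0.14 and 0.15 in control cortex and 0.15 and 0.14 in KO cortex, against 4.13 and 3.81 in control hippocampus and 5.04 and 3.91 in KO hippocampus. Every hippocampus library was far above every cortex library, and the cortex values rested on 17 to 40 reads against 429 to 1165 in hippocampus. In controls the log2 fold change was 4.71 (SE 0.19, n = 2 libraries per group, edgeR adjusted p = 3.8e-06), a 26.2-fold higher level in hippocampus.

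Msx2, the closest relative of Msx1 in this set, was lower than Msx1 in every library on the RPKM scale. It was listed at 0.07 and 0.04 RPKM in control cortex and 0.08 and 0.08 in KO cortex, against 0.50 and 0.44 in control hippocampus and 0.52 and 0.54 in KO hippocampus. The tissues did not overlap; the cortex libraries held 6 to 25 reads of Msx2 and the hippocampus libraries 70 to 150. In controls its log2 fold change was 2.93 (SE 0.28, edgeR adjusted p = 0.00014).

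Id3 was the most abundant of the 10 genes in hippocampus and came after Id4 in cortex. Its RPKM was 13.8 and 14.0 in control cortex and 14.0 and 14.5 in KO cortex, against 57.0 and 53.2 in control hippocampus and 54.2 and 57.8 in KO hippocampus. Replicates of a group lay close together, and the control log2 fold change was 1.92 (SE 0.08, edgeR adjusted p = 4.0e-06), a 3.77-fold higher level.

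Id1 moved in the same direction by less. It stood at 10.2 and 12.8 RPKM in control cortex and 10.5 and 13.7 in KO cortex, against 22.0 and 23.1 in control hippocampus and 24.2 and 25.7 in KO hippocampus. Replicate 2 was the higher library in all 4 groups, and the tissues did not overlap. The control log2 fold change was 0.90 (SE 0.14, edgeR adjusted p = 0.0018).

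Id4 was flat, with 36.7 and 39.7 RPKM in control cortex and 40.5 and 35.5 in KO cortex, against 36.8 and 40.6 in control hippocampus and 41.8 and 36.9 in KO hippocampus. The tissues overlapped. Its control log2 fold change was −0.06 with a 95% interval of −0.28 to 0.16 (edgeR adjusted p = 0.70), so a difference of the size seen for Id1 or Id3 lay outside that interval. As a result the order of the 2 most abundant genes turned between tissues: Id4 was above Id3 in all 4 cortex libraries and below it in all 4 hippocampus libraries.

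Among the ligands Bmp7, which signals largely through the type I receptor Acvr1, was the most abundant in every library. It lay at 1.96 and 1.78 RPKM in control cortex and 1.81 and 1.92 in KO cortex, against 4.69 and 4.47 in control hippocampus and 4.53 and 3.59 in KO hippocampus. The tissues did not overlap, and hippocampus KO replicate 2 was the lowest hippocampus library. The control log2 fold change was 1.21 (SE 0.13, edgeR adjusted p = 0.00029), a 2.32-fold higher level.

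Bmp6, of the same ligand subgroup as Bmp5 and Bmp7, was the next most abundant ligand. Its RPKM was 1.01 and 1.01 in control cortex and 1.29 and 0.87 in KO cortex, against 2.54 and 2.17 in control hippocampus and 2.75 and 1.83 in KO hippocampus. Replicate 1 was the higher library in 3 of the groups, and in both KO groups its replicates lay further apart than in the controls. The control log2 fold change was 1.15 (SE 0.24, edgeR adjusted p = 0.0076).

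Bmp5 and Bmp4 were higher in hippocampus at low levels. Bmp5 stood at 0.28 and 0.27 RPKM in control cortex and 0.26 and 0.32 in KO cortex, against 0.43 and 0.47 in control hippocampus and 0.40 and 0.34 in KO hippocampus. Its 2 tissues were separated most narrowly, the highest cortex library and the lowest hippocampus library both being KO libraries. The control log2 fold change was 0.64 (SE 0.17, edgeR adjusted p = 0.021). Bmp4, a ligand of the roof plate and cortical hem, was the lowest ligand in every library. Its RPKM was 0.10 and 0.07 in control cortex and 0.11 and 0.09 in KO cortex, against 0.21 and 0.23 in control hippocampus and 0.25 and 0.17 in KO hippocampus, from 10 to 29 reads in the cortex and 19 to 60 in the hippocampus libraries. The tissues did not overlap, and the control log2 fold change was 1.24 (SE 0.30, edgeR adjusted p = 0.014). The calls of both genes were lost in DESeq2, at an adjusted p of 0.070 for Bmp4 and 0.059 for Bmp5. They were also lost without any 1 of the 4 control libraries, at edgeR adjusted p of 0.055 to 0.077 for Bmp4 and 0.075 to 0.10 for Bmp5.

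Bmp2 was the only 1 of the 10 genes that was lower in hippocampus. This ligand, close in sequence to Bmp4, lay at 0.71 and 0.62 RPKM in control cortex and 0.64 and 0.67 in KO cortex, against 0.33 and 0.30 in control hippocampus and 0.35 and 0.40 in KO hippocampus. All 4 cortex libraries were above all 4 hippocampus libraries. The control log2 fold change was −1.14 (SE 0.17, edgeR adjusted p = 0.0011), so hippocampus held 0.453 of the cortex level. Bmp2 was above Bmp5 in the cortex libraries, while in hippocampus control the order was the other way round.

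By mean RPKM the order in cortex control was Id4, Id3, Id1, Bmp7, Bmp6, Bmp2, Bmp5, Msx1, Bmp4 and Msx2, and only the last neighbours, Bmp4 and Msx2, had overlapping ranges. In hippocampus control it was Id3, Id4, Id1, Bmp7, Msx1, Bmp6, Msx2, Bmp5, Bmp2 and Bmp4, and only Msx2 and Bmp5 overlapped. In hippocampus KO the order was Id3, Id4, Id1, Msx1, Bmp7, Bmp6, Msx2, Bmp2, Bmp5 and Bmp4, with overlap between Msx1 and Bmp7 and between Bmp2 and Bmp5. The order in cortex KO was that of cortex control, with no neighbours overlapping. In the GENCODE M21 annotation, Bmp4, Bmp5, Bmp6 and Id4 overlap other annotated genes, such as Txndc5 on the opposite strand at Bmp6, and no source used here gives the strand setting of the counting. Reads of those neighbours could not be told apart from reads of these 4 genes.

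**Figure D2:**
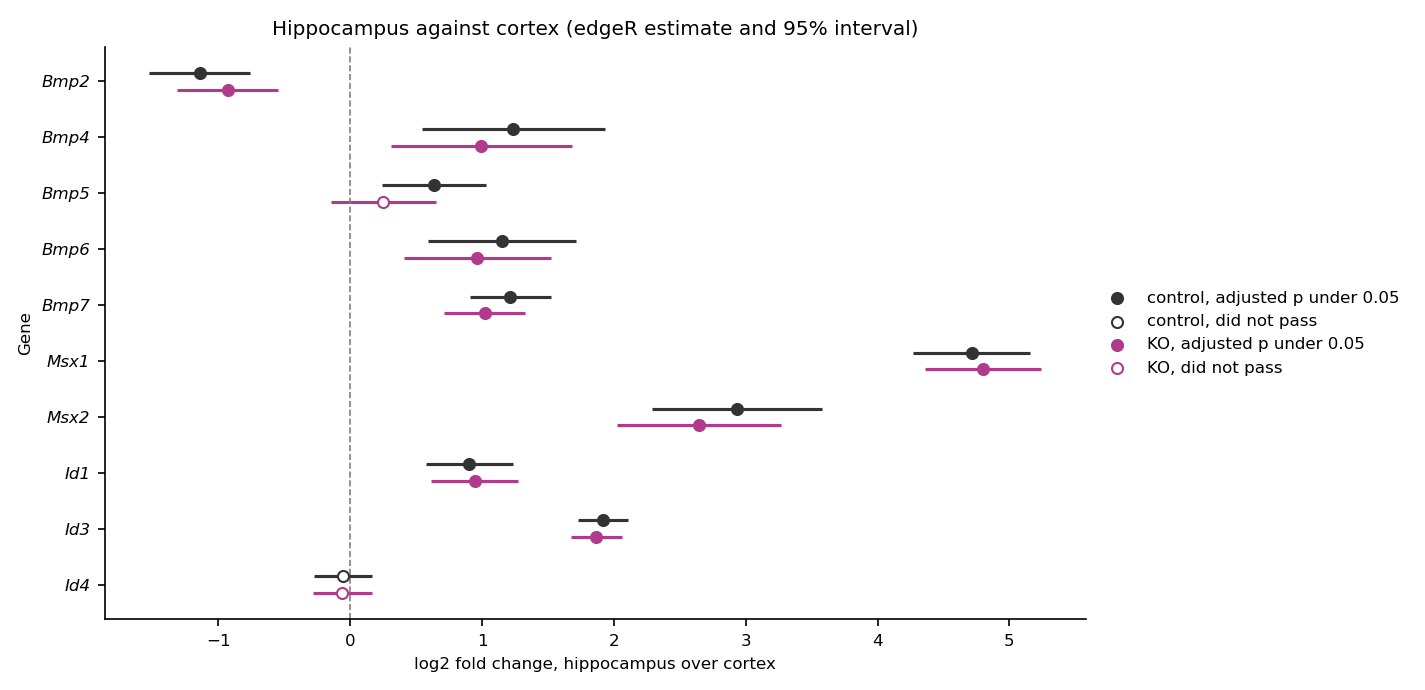
Log2 fold change of hippocampus over cortex (horizontal axis) for each of the 10 genes, in control (dark) and KO (magenta) libraries; points are edgeR estimates, lines 95% intervals, filled points an adjusted p under 0.05. Msx1 lies at 4.71 and 4.80, Bmp2 lies on the negative side in both genotypes, and Id4 sits at −0.06 in both.

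The same tissue comparison in KO embryos took its fold changes from the 4 KO libraries, and its estimate of spread from the fit of all 8. Here 7 of the 10 genes were higher in hippocampus, 1 was lower and 2 did not pass, beside 21.2% higher and 18.8% lower over all genes tested (40% in all). Msx1 had a log2 fold change of 4.80 (SE 0.19, edgeR adjusted p = 2.8e-06). Msx2 followed at 2.64 (SE 0.27), Id3 at 1.87 (SE 0.08), Bmp7 at 1.02 (SE 0.13), Bmp4 at 0.99 (SE 0.30), Bmp6 at 0.96 (SE 0.24) and Id1 at 0.94 (SE 0.14), all past the threshold. Bmp2 was lower by the same test, at −0.93 (SE 0.17, edgeR adjusted p = 0.0029). Id4 stood at −0.06 (95% interval −0.28 to 0.16) and Bmp5 at 0.25 (95% interval −0.15 to 0.65), and neither passed. The Bmp4 call was lost in DESeq2 (adjusted p = 0.17), with only the 4 KO libraries in the edgeR fit (adjusted p = 0.063), and without either cortex KO library or hippocampus KO replicate 1 (edgeR adjusted p of 0.097 to 0.24). Without hippocampus KO replicate 1 the Bmp4 log2 fold change was 0.64. The Bmp6 call was lost without cortex KO replicate 2 (edgeR adjusted p = 0.061) and without hippocampus KO replicate 1 (edgeR adjusted p = 0.11).

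The other parts of the pathway were read from lists of genes chosen by their textbook role, and they did not move as a block. Of 8 other ligand genes tested, 3 were higher in control hippocampus, 1 was lower and 4 did not pass, with a median log2 fold change of 0.55. Gdf5 was higher by 2.06 on the log2 scale (SE 0.17) and lay at 5.41 to 7.07 RPKM in hippocampus against 1.08 to 1.42 in cortex. Gdf10, a Bmp3-like ligand, was higher by 1.39 (SE 0.12), at 13.7 to 19.3 RPKM against 5.79 to 6.63, above all 5 BMP ligands described here. Bmp3, which opposes BMP signals, was lower at −1.42 (SE 0.28), and Bmp15 passed from levels of at most 0.05 RPKM in any library. Gdf11, at 6.19 to 7.54 RPKM, did not pass in controls (−0.16).

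Proteases that cut BMP precursors or free BMPs from their antagonists gave 3 higher, 0 lower and 3 not passed of 6 (median 0.33). The proprotein convertase Pcsk5 was higher by 1.53 on the log2 scale (SE 0.10), Pcsk6 by 1.00 (SE 0.16) and Furin by 0.45 (SE 0.12). Bmp1, a procollagen protease that cleaves the antagonist chordin, was at 14.5 to 23.0 RPKM, the most abundant of the list, and did not pass (0.21).

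Extracellular and membrane antagonists moved both ways: 9 were higher in control hippocampus, 3 were lower and 5 did not pass of 17 tested (median 0.36). Fstl1, a follistatin-like secreted protein, was higher by 0.70 on the log2 scale (SE 0.06), Bmper by 0.74 (SE 0.10), Twsg1 by 0.43 (SE 0.08) and Cer1, at most at 0.27 RPKM, by 2.40 (SE 0.32). Among the lower genes were Fst (−1.33) and Nog (−0.97), named after their values were seen, which encode the ligand traps follistatin and noggin. Noggin RNA was at 1.70 to 2.03 RPKM in hippocampus against 2.85 to 3.43 in cortex. Crim1, a membrane-bound antagonist of high abundance, did not pass (−0.22).

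Receptors and co-receptors were the list with the lowest median (−0.28): 1 was higher, 4 were lower and 7 did not pass of 12. The type II receptor gene Acvr2a was lower at −0.98 (SE 0.08), with 19.0 to 22.7 RPKM in hippocampus against 36.8 to 41.2 in cortex. The type I receptor gene Bmpr1b was lower at −1.14 (SE 0.15), the co-receptor Rgma at −0.37 (SE 0.12) and hemojuvelin (Hfe2) at −1.43 (SE 0.35). Hfe2 was at most at 0.29 RPKM in any library. Neo1, neogenin, which binds the Rgm co-receptors, was higher by 0.55 (SE 0.10), and Rgmb did not pass (−0.22). Among the Smads and Smurfs, 2 were higher, 1 was lower and 5 did not pass of 8 (median 0.04). Smad9 was higher by 0.82 (SE 0.16) and Smad5 by 0.27 (SE 0.07), while the inhibitory Smad7 was lower at −0.56 (SE 0.18). Smad1 (−0.09) and Smad4 (0.15), among the most abundant of that list, did not pass.

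The list of other response genes, which also holds Smad corepressors and a Smad-binding repressor, split evenly. It gave 5 higher, 5 lower and 3 not passed of 13 (median 0.15). Tgif1, a Smad corepressor, was higher by 2.51 on the log2 scale (SE 0.14), Atoh8 by 1.41 (SE 0.16), Hey2 by 1.23 (SE 0.13) and Zeb2, a Smad-binding repressor, by 0.40 (SE 0.10). Id2, the fourth Id gene and the most abundant, went the other way from Id1 and Id3: it was at 124 to 154 RPKM in hippocampus against 182 to 218 in cortex, a log2 fold change of −0.74 (SE 0.09). The other lower genes, named after their values were seen, were Dlx5 (−1.33), Dlx6 (−2.22), Runx2 (−2.30, at most at 0.33 RPKM) and Skil (−0.37). Dlx5 and Dlx6 mark GABAergic cells of the ventral forebrain, and the striatal genes described above were also high in these cortex libraries; their part in these 2 differences was not tested. Ski, the corepressor, did not pass (−0.02).

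Genes of the cortical hem and dorsal midline, the source of many forebrain BMPs and Wnts, gave 17 higher, 3 lower and 1 not passed of 21 tested (median 1.70). Rspo1, a Wnt potentiator, was higher by 3.81 on the log2 scale (SE 0.13), Emx2 by 2.64 (SE 0.11), Wnt5a by 2.21 (SE 0.08), the Wnt target Axin2 by 1.37 (SE 0.06) and Dkk3 by 0.73 (SE 0.10). Wnt7b was lower at −0.89 (SE 0.10), as was Wnt1 (−2.39), named after its values were seen and at most at 0.1 RPKM in any library.

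**Figure D3:**
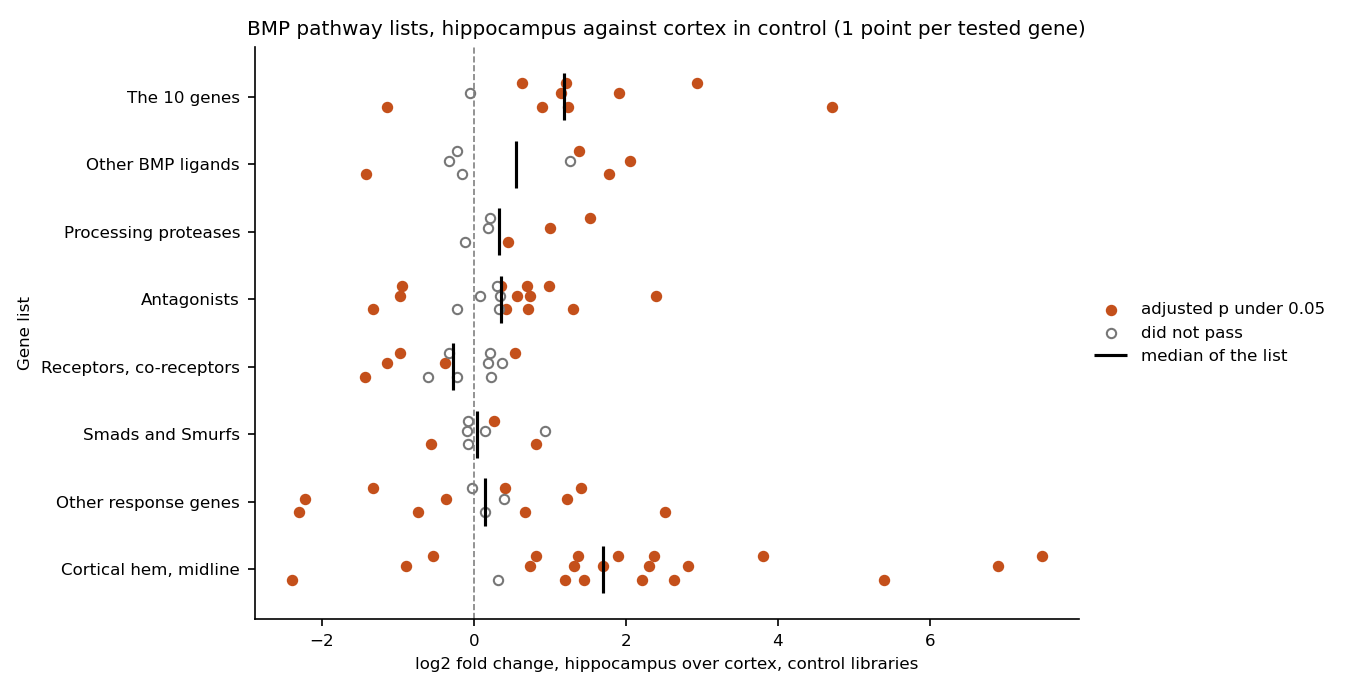
Log2 fold change of hippocampus over cortex in control libraries (horizontal axis) for each tested gene of 8 lists (rows); filled points passed at an adjusted p under 0.05, open points did not, and black bars are list medians. The medians run from −0.28 for receptors and co-receptors to 1.70 for the cortical hem list, with the 10 genes at 1.18.

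Marker genes of other cell types also differed between the tissues. Of 15 meningeal genes tested, 11 were higher in control hippocampus and 0 lower; their summed level was 23.2 to 41.1 RPKM in hippocampus against 6.77 to 8.17 in cortex, and 1 of them, Slc22a6, was listed at 0 in 2 cortex libraries. Of 16 choroid plexus genes, 10 were higher and 1 lower, with sums of 35.4 to 184 RPKM against 10.6 to 16.1, and none was listed at 0. Radial glia genes gave 7 higher and 1 lower of 10 (sums of 1593 to 1956 against 1125 to 1213), early astrocyte genes 6 and 3 of 10 (356 to 399 against 291 to 320), endothelial genes 6 and 0 of 12, and microglial genes 6 and 0 of 8. Pericyte and mural genes gave 4 and 0 of 10, and erythroid genes 0 and 0 of 8. Excitatory neuron genes went mostly the other way, with 1 higher and 4 lower of 8 (sums of 512 to 564 RPKM in hippocampus against 664 to 701 in cortex). Thalamic and diencephalic genes gave 2 higher and 3 lower of 7, with sums of 97.6 to 111 against 21.5 to 25.8. The part of these cell types in the higher levels of the 8 genes was not tested. In control replicate 2, the hippocampus library with the highest Ttr, Bmp4, Bmp5, Id1 and Id4 lay above replicate 1 on RPKM and the other 6 genes lay below it.

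The comparison of KO with control embryos, the purpose of the study, showed no passing change in any of the 10 genes. In cortex 0 of 10 passed in edgeR, beside 0.0186% of all genes tested (3 genes), and in hippocampus 0 of 10, beside 0.0248% (4 genes). None of the 10 reached an unadjusted p under 0.05 in either tissue, and DESeq2 and limma also called 0 of them. Over both tissues in an additive fit 0 of 10 passed, beside 0.0621% (10 genes). That fit treated the 4 libraries of a genotype as independent, though cortex and hippocampus may come from the same embryos. Genes whose 2 KO libraries both lay above, or both below, the 2 control libraries on RPKM numbered 1 of 10 in cortex (Msx2), beside 20.6% over all genes, and 4 of 10 in hippocampus, beside 27.2%. In hippocampus these were Bmp2, Msx2 and Id1, higher in KO beside 15.3% of all genes, and Bmp5, lower beside 11.8%.

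**Figure D4:**
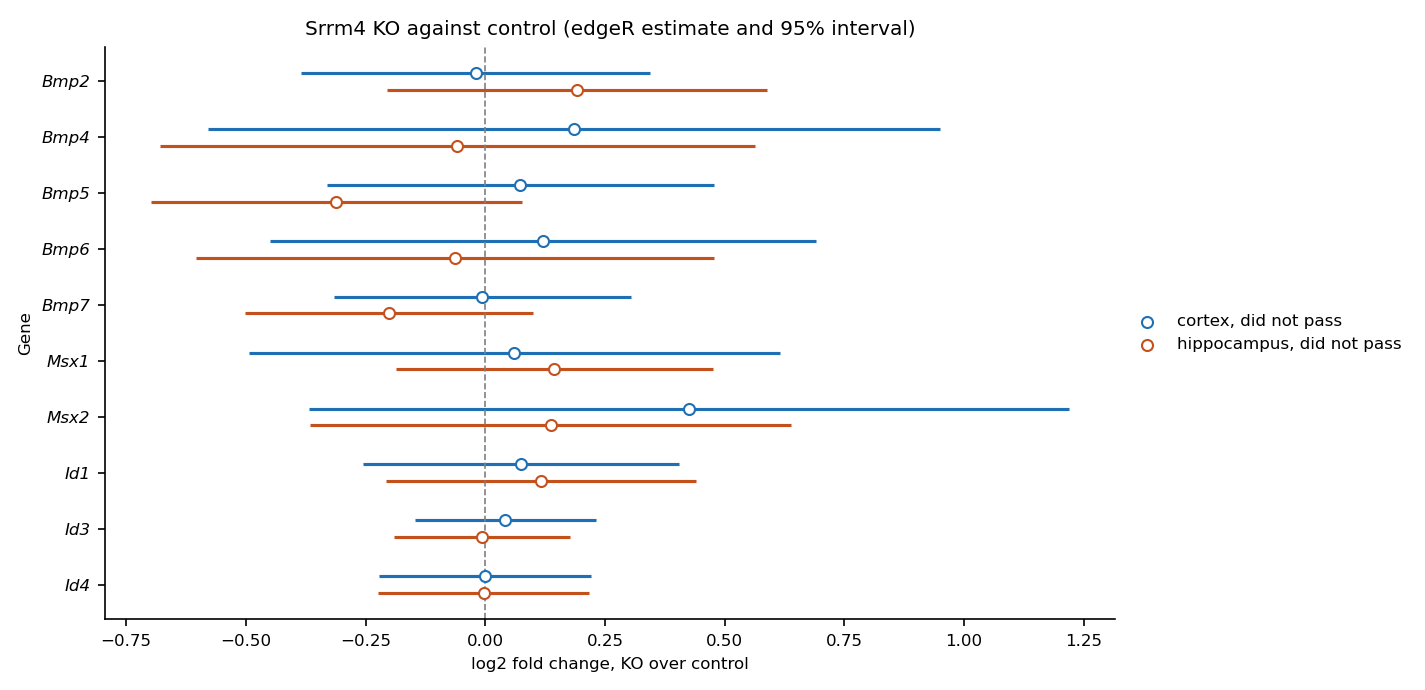
Log2 fold change of KO over control (horizontal axis) for each of the 10 genes in cortex (blue) and hippocampus (orange); points are edgeR estimates and lines 95% intervals. All 20 intervals include 0; the narrowest belong to Id3 and Id4 and the widest to Msx2 and Bmp4 in cortex.

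The intervals bound what these libraries leave possible. For Id3 the KO effect was 0.04 in cortex (95% interval −0.15 to 0.23) and −0.01 in hippocampus (−0.19 to 0.18), on the log2 scale. Id4 stood at −0.0002 in cortex (−0.22 to 0.22) and −0.0033 in hippocampus (−0.22 to 0.22), and Id1 at 0.07 (−0.26 to 0.40) and 0.12 (−0.21 to 0.44). Msx1 was at 0.06 in cortex (−0.49 to 0.62) and 0.14 in hippocampus (−0.19 to 0.48). Msx2, with 12 and 25 reads in cortex KO against 6 and 22 in cortex control, had the widest interval, 0.43 (−0.37 to 1.22), and was at 0.14 (−0.37 to 0.64) in hippocampus. At these counts a KO effect on Msx2 of more than 2-fold in cortex was not excluded by the interval.

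Among the ligands the KO estimates in hippocampus were −0.31 for Bmp5 (−0.70 to 0.08), −0.20 for Bmp7 (−0.50 to 0.10), −0.06 for Bmp6 (−0.60 to 0.48), −0.06 for Bmp4 (−0.68 to 0.56) and 0.19 for Bmp2 (−0.20 to 0.59). In cortex they were 0.07 for Bmp5 (−0.33 to 0.48), −0.01 for Bmp7 (−0.32 to 0.30), 0.12 for Bmp6 (−0.45 to 0.69), 0.19 for Bmp4 (−0.58 to 0.95) and −0.02 for Bmp2 (−0.38 to 0.34). The 4 ligands with negative hippocampal estimates were all lowest, among the hippocampus libraries, in KO replicate 2. That library also held the lowest level of 10 of 15 meningeal genes, such as Col3a1 at 1.96 RPKM against 4.19 to 5.32 in the other 3 libraries, and the lowest meningeal sum, 23.2 RPKM against 32.2 to 41.1. It was also the lowest of the 4 for 7 of 10 radial glia genes, with the lowest radial glia sum (1593 RPKM against 1676 to 1956). KO replicate 1 was the highest for 6 of these 10 genes and control replicate 1 for 4, and the largest sum, 1956 RPKM, was that of KO replicate 1. Of 22 cortical hem genes, 9 were lowest in KO replicate 2 and 7 in control replicate 2, while 14 were highest in KO replicate 1 and 3 in KO replicate 2. Of the 10 genes described here, KO replicate 2 was lowest for 4 and highest for 4 (Bmp2, Msx2, Id1 and Id3). The share of all genes that were lowest in KO replicate 2 was not counted. The lowest Ttr was in control replicate 1. The part of these cell types in the ligand values was not tested.

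**Figure D5:**
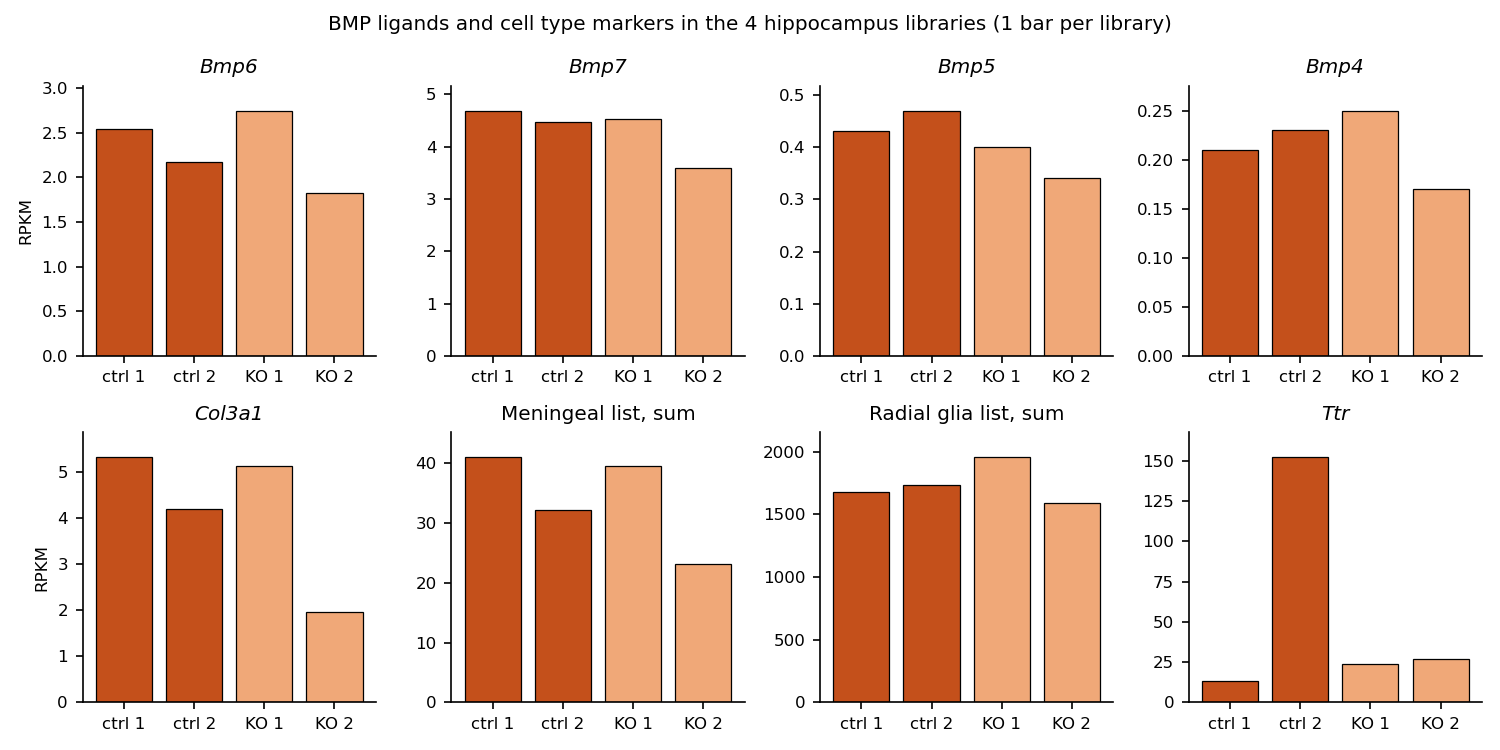
RPKM (vertical axes, linear from 0) in the 4 hippocampus libraries, 1 bar per library, for 4 BMP ligands (top) and for Col3a1, the sum of 15 meningeal genes, the sum of 10 radial glia genes and Ttr (bottom). The 4 ligands, Col3a1 and both sums are lowest in KO replicate 2, and Ttr is highest in control replicate 2 (152 RPKM). Bmp2, not drawn, was highest in KO replicate 2 (0.40 RPKM).

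The KO effect was not shown to differ between tissues for any of the 10 genes. The difference of effects (hippocampus minus cortex) passed for 0 of 10 and for 0% of all genes tested in edgeR; 0 of the 10 and 158 of all genes had an unadjusted p under 0.05, and DESeq2 and limma called 0 genes. For Bmp5, which passed the tissue test in controls and not in KO, this difference was −0.38 on the log2 scale (95% interval −0.94 to 0.18, edgeR adjusted p = 1.00). It was −0.29 for Msx2 (−1.22 to 0.65), −0.24 for Bmp4 (−1.23 to 0.74), −0.05 for Id3 (−0.31 to 0.21) and 0.08 for Msx1 (−0.57 to 0.73). No gene of the ligand, protease, antagonist, receptor, Smad, response or cortical hem lists passed in cortex, in hippocampus or over both tissues either. The counts at an unadjusted p under 0.05 were at most 3 per list, the 3 being response genes in hippocampus, of 13 tested. Over all 16111 genes tested, 614 were under 0.05 in hippocampus, 183 in cortex and 713 over both tissues. These counts, and the 158 for the difference of effects, are smaller shares than the 0.05 that evenly spread p-values would give. The test was thus strict in these contrasts, and the absence of passing genes is weak evidence of no KO effect. The 3 response genes were Dlx5, Dlx6 and Runx2. Dlx6 was at 3.36 RPKM in hippocampus control replicate 2 against 0.91 to 1.38 in the other hippocampus libraries. Runx2 was at 0.04 to 0.14 RPKM in hippocampus.

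Genes with the pattern most like each member were sought among 13097 genes as those with the smallest root-mean-square difference of centred log2(RPKM + 0.1) values over the 8 libraries. This was done for members reaching a mean of at least 1 RPKM in a group. For Msx1, whose log2(RPKM + 0.1) values spanned 4.42 units, these were Adamts19 (0.097), Prelp (0.159) and Ifi203 (0.170). All spans given here are on that scale, on which the added 0.1 narrows the span of genes at low RPKM. Adamts19, a secreted metalloprotease, was at 0.27 to 0.31 RPKM in cortex and 6.27 to 7.00 in hippocampus. For Id3, spanning 2.06, they were the chemokine receptor gene Cxcr4 (0.049), the tetraspanin gene Cd9 (0.051) and Kcnk1 (0.057); for Id1, spanning 1.32, they were Anxa2, Rhpn1 and Tcf19 (0.056 to 0.058). The nearest to Bmp7 were Itih5, Emp2 and Naaa (0.070 to 0.079), and the nearest to Bmp6 were Cybrd1, Notch2 and Katnal2 (0.095 to 0.110). Cybrd1 and Notch2 shared with Bmp6 a hippocampus KO replicate 1 above replicate 2, at 14.4 against 9.72 RPKM for Notch2. Id4 spanned only 0.23 log2 units, so its nearest genes (Rwdd4a, Wdr5b and Cdkal1) are other genes of flat level. These distances describe 8 libraries that share 2 tissues and carry no test.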

How the data were processed

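Per the labels' protocols, RNA was extracted with Tri Reagent for TruSeq libraries. Bowtie (version not stated) and build mm9 are named in the submitters' processing notes; of the counting rule, strand setting and annotation, no source used here gives any. Each of the 8 tables, deposited by the authors for 12 labelled samples (2 runs of each replicate 1 share a table), holds a read count and an RPKM value per Ensembl gene ID. The count column, deposited by the authors, was read as raw counts, with blank cells as 0; RPKM cells with the text "ne" (1114 per table) were treated as missing. Symbols came from GENCODE M21 (20759 of 22667 IDs), and promoters from RefSeq (GRCm38.p6), used with their own coordinates.

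Counts were tested with edgeR 4.0.16 in R 4.3.3 (TMM scaling, filterByExpr with a minimum count of 10 and a minimum total of 15, quasi-likelihood F test, Benjamini-Hochberg adjustment over 16111 genes, threshold 0.05). Tissue and KO contrasts came from 1 fit of the 4 group means over the 8 libraries, and the KO effect over both tissues from an additive fit. The SE was the log2 fold change over the root of F. Genes below the filter were not tested. Counts of separated groups used genes with RPKM in all libraries. At these depths 3 counts correspond to 0.0214 to 0.0515 CPM, which covers counting error only. The alternatives were DESeq2 1.42.0, its size factors in edgeR, no filter beyond 1 count, limma 3.58.1 on log2(RPKM + 1) and log2(RPKM + 0.1), a replicate block, narrower fits and each library left out. The code was tested on simulated data. All 10 genes are named; of each list, up to 4 passing genes with the smallest p in the control tissue contrast and up to 3 with the highest mean RPKM were eligible for naming. The genes and lists were chosen with earlier results of these data known. Results on some single genes of the lists are not reported here.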

Additional observations from a re-analysis of the deposited data

How the results depend on the processing

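No called difference of the 10 genes turned its direction under any alternative run. The number of the 10 passing in the control tissue contrast was 9 in the reported fit and 7 to 9 over the alternatives; in the KO tissue contrast it was 8 and then 6 to 8, and it was 0 in every KO contrast and alternative. The counts over all genes moved more. DESeq2 called 11 genes for the KO in cortex against 3, 18 in hippocampus against 4 and 37 over both tissues against 10. In hippocampus, limma on log2(RPKM + 1) called 2 and the fit of only the compared libraries 2. Leaving out each library in turn gave 2 to 6 genes for the KO in hippocampus, 3231 to 6000 for the control tissue contrast against 5464, and 4156 to 6364 for the KO tissue contrast against 6442; the lowest tissue counts came without cortex control replicate 1 and without cortex KO replicate 1. A replicate left out leaves 1 library in its group, which is then assumed to vary like the others. The replicate number as a block gave 22 genes over both tissues against 10 and changed no call of the 10 genes. The labels do not say that a number marks a shared embryo. Deviations of same-numbered libraries correlated at 0.368 between cortex and hippocampus of controls and at 0.380 between those of KO. The other pairs of groups gave 0.0961 to 0.282. Whether the tissues share embryos was not tested. The median log2 fold change of all genes shifted by over 0.1 only under limma on log2(RPKM + 0.1) in the KO tissue contrast (0.104). Depth limits Msx2 and Bmp4 most, which had as few as 6 and 10 reads in a cortex library.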
